A study of Mus musculus with 2 samples.

Results

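The ATP-binding cassette (ABC) genes counted as members here are the 50 genes, of 50768 listed, whose symbols begin with *Abca* to *Abcg* followed by a digit. They were followed in single-cell RNA sequencing (scRNAseq) of salivary glands from female mice at 20 weeks of age, in 1 NOD/ShiLtJ (NOD) and 1 CD1 library. NOD/ShiLtJ is an inbred strain that develops autoimmune disease of the glands, and CD1 is an outbred strain used as the control; neither received a treatment. Each library pooled submandibular and sublingual glands of several mice, and the sources differ on how many. Cells carrying EpCAM (epithelial) or Ter119 (red blood cells) and dead cells had been depleted. The genes were chosen by symbol, and the family was selected on an earlier look at these libraries in which *Abcb1b* had no UMI in NOD macrophages (1 UMI in the macrophage-like barcodes used here), so the differences between strains are given as a description. With 1 library per strain no test was possible, pooled mice cannot be told apart, and all intervals below are 95% intervals of counting error only.

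ABC proteins use ATP to move lipids, drugs, haem, bile components or peptides across membranes. Most members sit in the plasma membrane or an organelle membrane, whereas the ABCE and ABCF proteins have no membrane-spanning part and act in translation. *Abcb1a* and *Abcb1b* are neighbouring mouse genes that both encode P-glycoprotein, the efflux pump that keeps drugs out of tissues such as brain, and humans have a single counterpart. Endothelium, macrophages and lymphocytes are each known for their own set of family members, among them *Abca1*, which exports cholesterol from macrophages.

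Droplet barcodes with at least 500 transcripts (unique molecular identifiers, UMIs) and at least 300 genes were kept, 6500.0 in NOD and 7014 in CD1, with medians of 5719.5 and 6495 UMIs. Of these, 18 barcode sequences occurred in both libraries. Each barcode took a class when at least 3 of the 8 markers of a cell type had a UMI and led every other type by at least 2 markers. This gave 704 NOD and 2918 CD1 macrophage-like barcodes, 1032 and 2807 endothelial-like, 1841 and 86 T-like, 658 and 368 NK-like, 879 and 8 B-like, and 58 and 16 fibroblast-like barcodes, whereas 1270 and 739 took no class. Levels are UMIs of the gene per 1000000 UMIs of the class (CPM). The NOD macrophage-like barcodes were shallower than those of CD1, with medians of 3447 and 7128.5 UMIs. Clustering without the 50 member genes placed 43.9% of them in a low-depth cluster led by *Aif1* and 36.8% in a cluster led by *Cx3cr1*, against 29.4% and 57.7% of the CD1 barcodes. Of the 50 members, 39 had at least 20 UMIs in all kept barcodes. *Abca12*, *Abca16*, *Abcb5*, *Abcb11*, *Abcc2*, *Abcc6*, *Abcc8*, *Abcc12*, *Abcg4*, *Abcg5* and *Abcg8* had fewer, and *Abcg5* had none.

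In CD1 *Abcb1b* was highest in macrophage-like barcodes, followed by T-like barcodes (60.5 CPM), and it was almost without UMIs in NOD macrophage-like barcodes. The 704 NOD macrophage-like barcodes held 1 *Abcb1b* UMI (0.242 CPM, 0.00612 to 1.35), and the 2918 CD1 barcodes held 1629 (81.1 CPM, 77.2 to 85.1). The log2 ratio of NOD to CD1 was -8.39 (-13.70 to -5.91), the lowest of the 12023 genes compared in this class. At the average level of both libraries, 278 NOD UMIs would have been counted. Of 3408 genes for which that number was at least 200, *Abcb1b* was the only gene with 3 or fewer NOD UMIs. The family was chosen for the low *Abcb1b* count in these cells, so both ranks restate that choice and are no separate evidence. In CD1 the transcript was spread over 897 of the barcodes (30.7%), with at most 11 UMIs in any of them, so no small set of barcodes set its level. Droplets without a cell, barcodes of 10 to 100 UMIs, held *Abcb1b* at 1.43 CPM in NOD and 35.0 CPM in CD1, so the NOD macrophage-like level lay below that of free RNA in its own library. In CD1 the NK-like (22.4 CPM) and endothelial-like (14.1 CPM) levels also lay below that of free RNA, and the macrophage-like and T-like levels above it. With free RNA subtracted, the log2 ratio was a bound of -5.31 in NK-like barcodes and -1.50 in endothelial-like barcodes.

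The same direction appeared in the other classes, at different sizes. NK-like barcodes held 0 *Abcb1b* UMIs in NOD and 95 in CD1 (22.4 CPM, 18.1 to 27.3), at least 43.7-fold lower in NOD against a floor of 3 UMIs. Of 658 NOD barcodes 0 held a UMI, which allows a share of up to 0.456% when 3 counts are taken as the limit (0.559% as the upper Clopper-Pearson bound), against 13.9% in CD1. T-like barcodes held 35 UMIs in NOD (2.60 CPM, 1.81 to 3.61) and 45 in CD1 (60.5 CPM, 44.1 to 80.9). That log2 ratio was -4.54 (-5.22 to -3.87) but rested on 86 CD1 barcodes, and *Abcb1b* lay under the 10 expected UMIs set as the minimum for comparison. In CD1, 31.4% of T-like barcodes held a UMI, against 30.7% of macrophage-like barcodes. Endothelial-like barcodes differed least, with 27 NOD UMIs (4.59 CPM, 3.03 to 6.68) and 271 CD1 UMIs (14.1 CPM, 12.5 to 15.9), a log2 ratio of -1.62 (-2.25 to -1.05). B-like barcodes held 0 in both libraries, which for CD1 rests on 8 barcodes, and fibroblast-like barcodes held 1 in each.

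*Abcb1a*, the paralog, stayed within 2-fold between the libraries in all 4 classes compared. It was highest in endothelial-like barcodes, with 1733 NOD UMIs (295 CPM, 281 to 309) and 5028 CD1 UMIs (262 CPM, 255 to 269) and a log2 ratio of 0.17 (0.09 to 0.25). T-like barcodes had 62.8 CPM in NOD and 59.1 in CD1 (log2 ratio 0.09, -0.35 to 0.56), and NK-like barcodes 33.4 and 20.7 CPM (0.69, 0.32 to 1.07). In macrophage-like barcodes it was scarce in both libraries, with 12 UMIs (2.90 CPM) in NOD and 63 (3.14 CPM) in CD1, of which a single CD1 barcode held 21. The ratio there was -0.11 (-1.14 to 0.79). Among the macrophage-like barcodes of the *Cx3cr1*-led cluster it was 9 against 10 UMIs, a log2 ratio of 2.52 (1.05 to 3.97). With whole clusters as classes it was 3.05 (2.23 to 3.91). Those clusters also held T-like barcodes, 35 from NOD and 3 from CD1 in the cluster led by *Mki67*. Their part in the 3.05 was not tested. The macrophage value of *Abcb1a* thus depends on which barcodes are counted. NOD B-like barcodes held 10 *Abcb1a* UMIs (2.00 CPM).

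**Figure D1:**
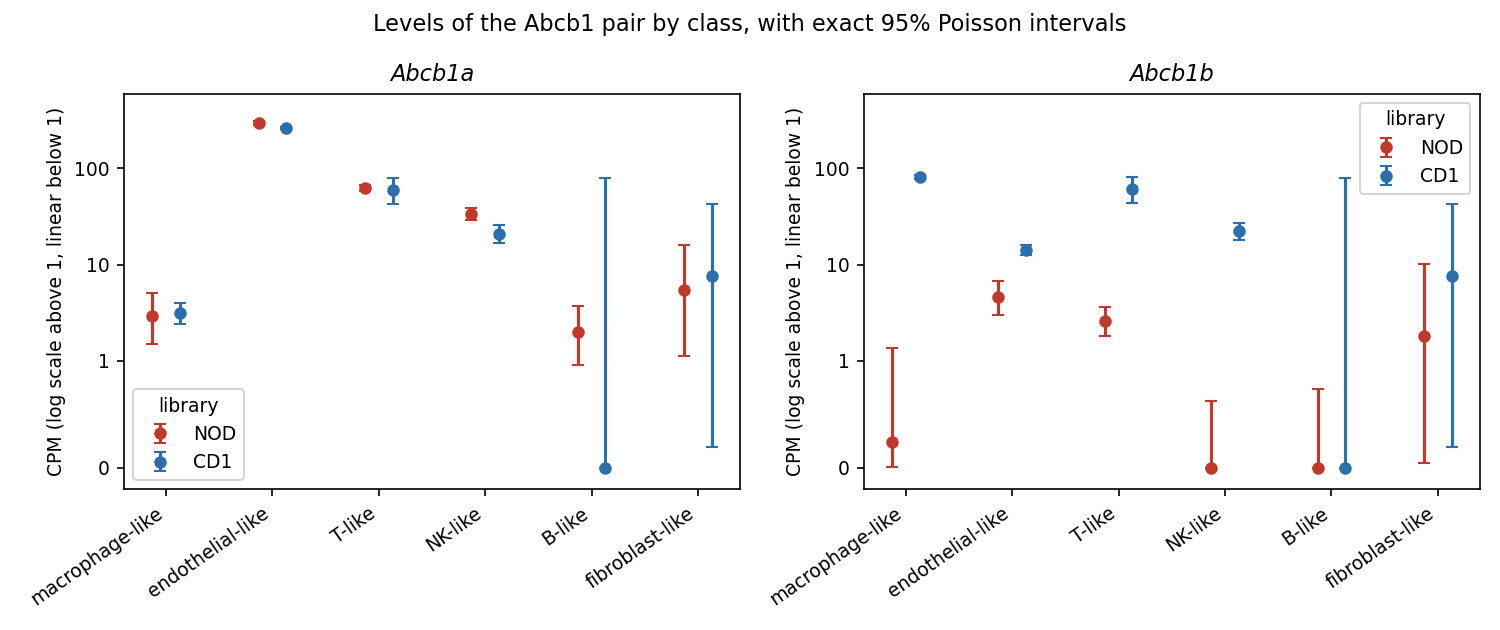
Levels of *Abcb1a* (left) and *Abcb1b* (right) in CPM by class in the NOD (red) and CD1 (blue) libraries, on an axis that is logarithmic above 1 CPM and linear below; bars are exact 95% Poisson intervals. *Abcb1a* lies close to the same level in both libraries in macrophage-like, endothelial-like and T-like barcodes, whereas *Abcb1b* drops from 81.1 to 0.242 CPM in macrophage-like and from 22.4 to 0 CPM in NK-like barcodes.

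Because both genes are counted in the same barcodes, the share of *Abcb1b* among *Abcb1a* and *Abcb1b* UMIs does not depend on scaling. In CD1 it was 96.3% (95.3 to 97.1) in macrophage-like, 51.9% (44.4 to 59.3) in NK-like, 50.6% (39.8 to 61.3) in T-like and 5.11% (4.54 to 5.74) in endothelial-like barcodes. In NOD it was 7.69% of 13 UMIs (0.195 to 36.0), 0% of 196 (0 to 1.86), 3.97% of 881 (2.78 to 5.48) and 1.53% of 1760 (1.01 to 2.22), respectively. *Abcb1b* thus made up most of the UMIs of the pair in CD1 macrophage-like barcodes and a similar number to *Abcb1a* in CD1 T-like and NK-like barcodes, and the NOD shares were lower in all 4 classes.

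The difference was also present cluster by cluster. In the 23 clusters with at least 10 barcodes in each library, *Abcb1b* was lower in NOD in 23, was at 0 in 10 in NOD and at 0 in none in CD1. Its CD1 levels in these clusters ran from 3.05 to 120 CPM, and free RNA, with *Abcb1b* at 35.0 CPM in CD1, was not subtracted from them. *Abcb1a* was lower in NOD in 10 and higher in 10 of the same clusters. The *Cx3cr1*-led macrophage cluster held 0 *Abcb1b* UMIs in 263 NOD barcodes and 1440 in 1687 CD1 barcodes (90.0 CPM). A cluster led by the immunoglobulin gene *Jchain* held 1 and 37 *Abcb1b* UMIs (1.04 and 72.7 CPM), and a cluster led by *Stab2* held 0 and 47 (0 and 53.8 CPM). The *Mecom*-led endothelial cluster, which also had the arterial genes *Gja4* and *Sox17* among its leading genes, showed one of the smaller gaps for *Abcb1b*. Its 14 NOD and 64 CD1 UMIs were 10.5 and 17.7 CPM, and the interval of the log2 ratio, -0.76 (-1.71 to 0.09), included 0. In the *Rbp7*-led endothelial cluster, which had the capillary gene *Gpihbp1* among its leading genes, *Abcb1b* had 2 and 150 UMIs, or 1.74 and 12.9 CPM.

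**Figure D2:**
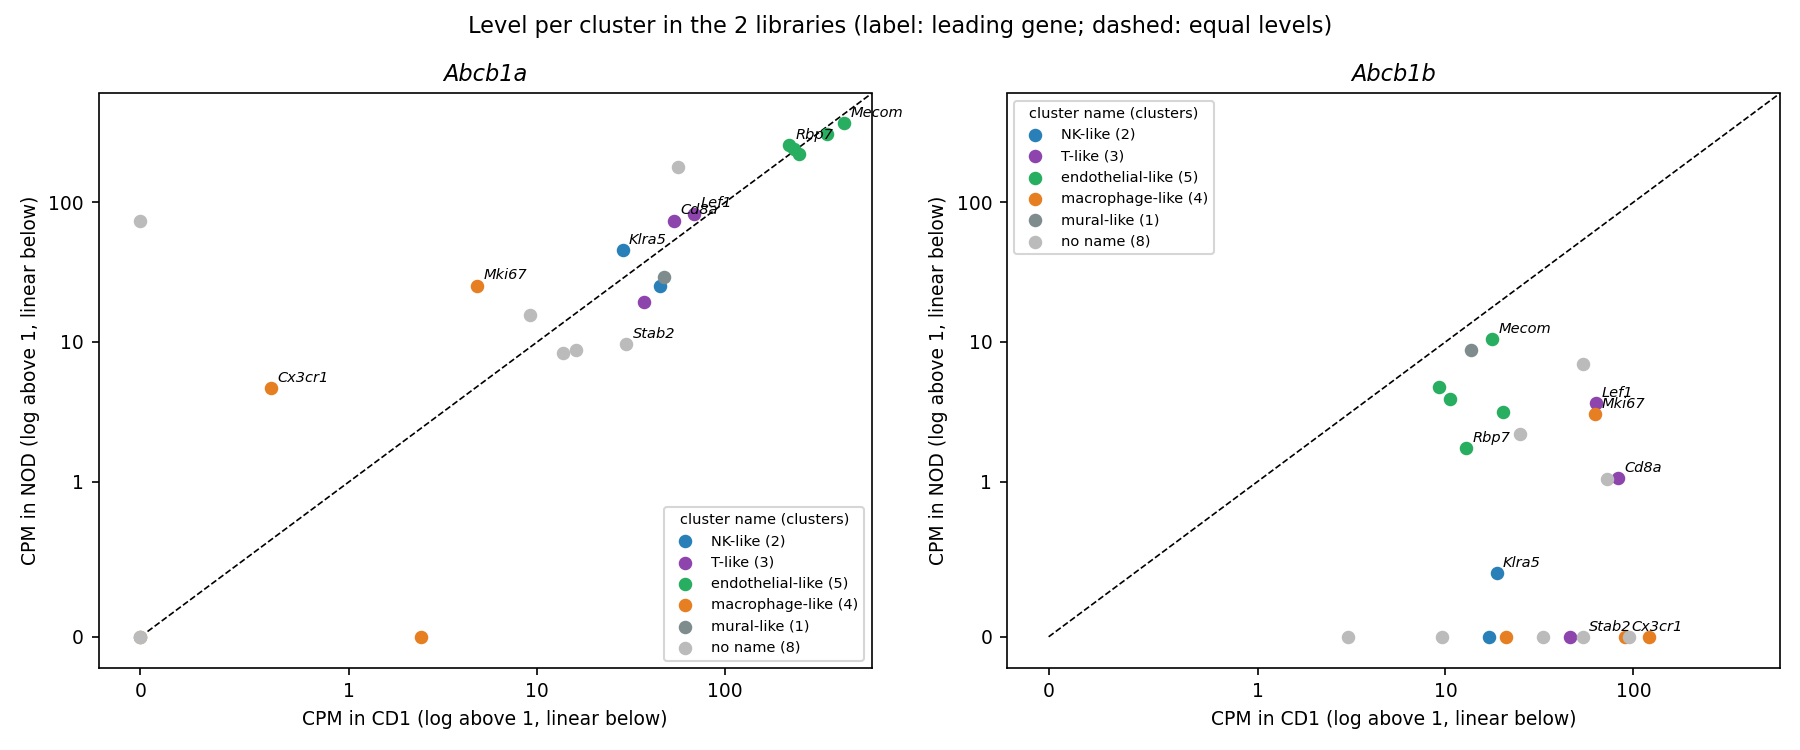
CPM of *Abcb1a* (left) and *Abcb1b* (right) in each cluster with at least 10 barcodes in both libraries, CD1 on the horizontal and NOD on the vertical axis (logarithmic above 1 CPM, linear below), coloured by cluster name. *Abcb1a* clusters lie on either side of the dashed line of equal levels, and all 23 *Abcb1b* clusters lie below it.

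The upstream sequences of the pair are shown because 2 adjacent genes for the same pump had different lineages and different strain ratios. They are the 250 bases before the RefSeq start of each gene, both on the plus strand of chromosome 5 in GRCm38.p6, *Abcb1a* at chr5:8566841-8567090 and *Abcb1b* at chr5:8797897-8798146. Capitals mark CCAAT and its reverse complement ATTGG, and GGGCGG (the GC box) and its reverse complement; TATAAA (the TATA box) was searched on both strands too.
Abcb1a: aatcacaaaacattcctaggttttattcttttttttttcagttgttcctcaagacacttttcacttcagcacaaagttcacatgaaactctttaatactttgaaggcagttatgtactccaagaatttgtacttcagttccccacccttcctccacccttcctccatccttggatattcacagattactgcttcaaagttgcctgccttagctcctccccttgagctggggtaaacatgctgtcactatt
Abcb1b: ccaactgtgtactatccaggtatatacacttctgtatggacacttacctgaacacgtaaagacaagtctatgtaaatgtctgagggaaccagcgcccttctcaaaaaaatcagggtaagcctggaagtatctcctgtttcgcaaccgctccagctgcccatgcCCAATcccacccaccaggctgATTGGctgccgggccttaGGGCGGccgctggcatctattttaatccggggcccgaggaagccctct
The *Abcb1b* window held 2 CCAAT matches, one on each strand, and 1 GGGCGG match, and the *Abcb1a* window held neither. Of 32851 RefSeq windows of this length, 33.8% held CCAAT, 32.7% GGGCGG and 12.4% TATAAA on either strand. TATAAA was in neither window. The GC content was 40.4% for *Abcb1a* and 52.8% for *Abcb1b*. These are reference sequences and were not read from NOD or CD1 mice. Each window rests on a single RefSeq start of its gene. Other starts, and which start these cells use, were not examined, so the windows may not be the promoters in use.

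The 2 transcripts are alike over much of their length, so the assignment of reads from stretches that they share is uncertain. In the GRCm38 annotation (GENCODE vM21), *Abcb1a*-201 and *Abcb1b*-201 were 87.4% identical over 4049 aligned positions. Of the 50-base windows of *Abcb1b*-201, 18.0% occurred in *Abcb1a*-201. In the last 500 bases of *Abcb1b*-201, where 3′ libraries place most reads, 14 of 451 windows did, and of the last 451 windows of *Abcb1a*-201, 0 occurred in *Abcb1b*-201. Reads in shared windows may have been left out of either gene; the differences between NOD and CD1 sequence in these transcripts were not analysed here. In these counts a NOD *Abcb1b* transcript that was present but not assigned to the gene cannot be told apart from one that was absent.

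Of the genes around *Abcb1b* in the GRCm38.p6 order (*Slc25a40*, *Rundc3b* and *Abcb1a* on one side and *Abcb4*, *Crot* and *Tmem243* on the other), *Abcb4* was the only one past 2-fold of the 5 compared in macrophage-like barcodes, and *Rundc3b* had too few UMIs. *Crot* had 17.6 CPM in NOD and 21.0 in CD1, and *Tmem243* 30.2 and 47.4. In NK-like barcodes *Rundc3b* was lower in NOD (9.38 and 27.8 CPM, log2 ratio -1.57, -2.05 to -1.09). In T-like barcodes *Rundc3b* had 11.0 and 36.3 CPM but too few expected UMIs for comparison.

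*Abcb4*, which encodes the phospholipid floppase of bile, was a B-like and macrophage-like transcript in these glands. NOD B-like barcodes held 289 UMIs (57.7 CPM, 51.2 to 64.8) in 190 of 879 barcodes. The 8 CD1 B-like barcodes held 0, with an upper limit of 80.2 CPM. Macrophage-like barcodes held 21 *Abcb4* UMIs in NOD (5.07 CPM, 3.14 to 7.76) and 383 in CD1 (19.1 CPM, 17.2 to 21.1), a log2 ratio of -1.91 (-2.62 to -1.28). Within the *Cx3cr1*-led cluster it had 6.63 and 21.4 CPM. Empty droplets held *Abcb4* at 8.98 CPM in NOD and 6.23 CPM in CD1, so the NOD macrophage-like level lay below that of free RNA and the CD1 level above it. *Abcb9*, a lysosomal peptide transporter, was highest in NK-like barcodes, with 13.1 CPM in NOD and 14.8 in CD1.

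Members differed in the class where they were highest. With the UMIs of both libraries summed and the 6 classes with at least 50 barcodes in either, fibroblast-like barcodes had the highest level of 10 members, macrophage-like and B-like of 7 each, NK-like of 6, endothelial-like of 5 and T-like of 4. The same count was not made over all genes, so these numbers are not a result about the family. Fibroblast-like barcodes led on as few as 15 UMIs for *Abcb8*, 21 for *Abcd2* and 23 for *Abca5*. Summed over the 50 members, the family made up 1299.9 CPM in NOD and 1277 CPM in CD1 macrophage-like barcodes, and 1816 and 1477 CPM in endothelial-like barcodes. The leading values of T-like, B-like and fibroblast-like barcodes rest mainly on NOD, with 86, 8 and 16 barcodes in CD1. The highest class is that of the summed UMIs throughout, and it differed in one of the libraries for several members. *Abcf1* was higher in NK-like than T-like barcodes in NOD (136 and 132 CPM), and *Abca2* (45.7 CPM), *Abcb9* (21.5 CPM) and *Abcf2* (24.2 CPM) were higher in T-like than NK-like barcodes in CD1, on 34, 16 and 18 UMIs, as was *Abcc10* (12.1 and 9.41 CPM, on 9 and 40 UMIs). The opposite held in CD1 for *Abca7*, with 27.8 CPM in NK-like and 25.5 in T-like barcodes, and for *Abcg3*, with 24.5 and 18.8 CPM. *Abcb6* was higher in endothelial-like than macrophage-like barcodes in NOD (2.72 and 2.17 CPM), *Abca13* in NK-like than macrophage-like barcodes in NOD (1.88 and 0.725 CPM), and *Abcc5* in macrophage-like than fibroblast-like barcodes in CD1. The members led by B-like barcodes could not be ranked in CD1.

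**Figure D3:**
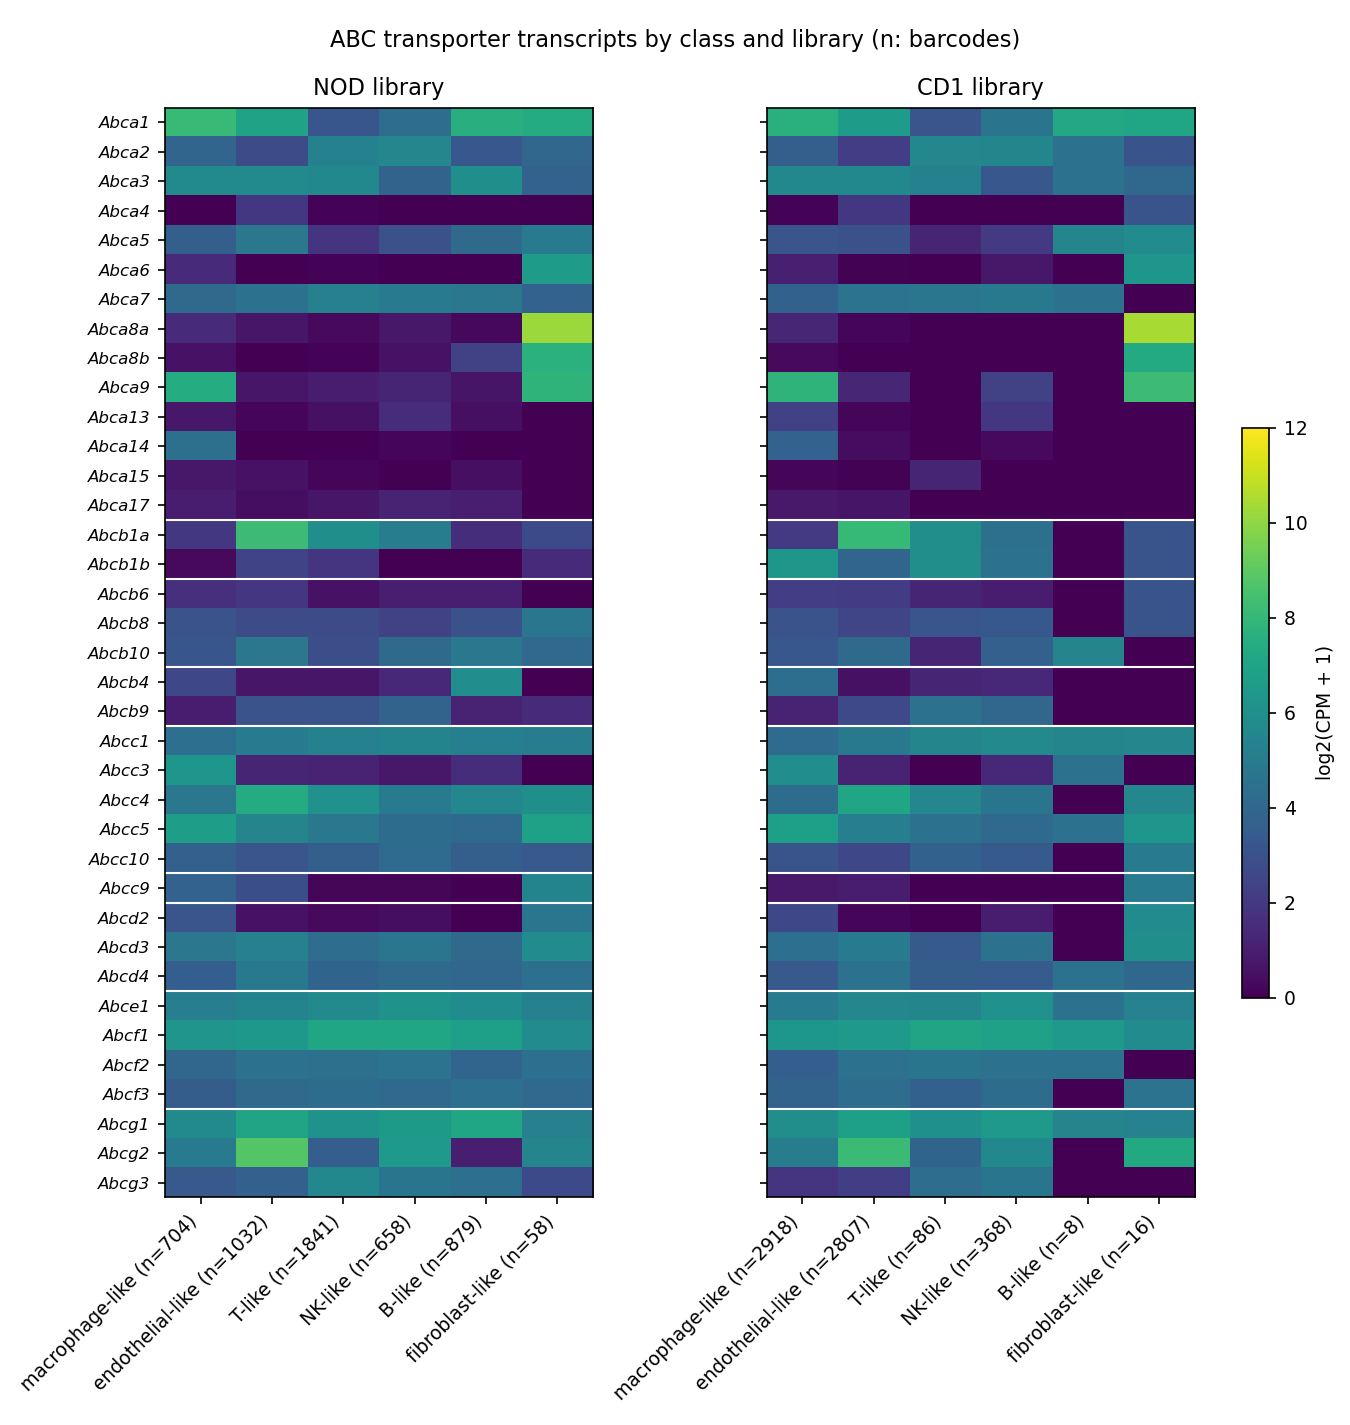
Levels of members with at least 20 UMIs, as log2(CPM + 1), in 6 classes of the NOD (left) and CD1 (right) libraries, with the number of barcodes under each column and white lines between functional groups. In both libraries *Abca8a* is brightest in fibroblast-like and *Abcg2* and *Abcb1a* in endothelial-like barcodes; *Abcb1b* in macrophage-like barcodes is bright in CD1 and dark in NOD.

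The 16 ABCA members transport lipids or are presumed to do so. *Abca1*, the cholesterol exporter that loads nascent high-density lipoprotein, was highest in macrophage-like barcodes, with 1116 NOD UMIs (270 CPM, 254 to 286) and 3948 CD1 UMIs (197 CPM, 190 to 203). NOD B-like barcodes came close, at 192 CPM (180 to 204). T-like barcodes had the lowest *Abca1* level of the 6 classes, 8.16 CPM in NOD and 8.06 in CD1. *Abca8a*, a lipid transporter, marked fibroblast-like barcodes, with 648 UMIs (1174 CPM) in NOD and 179 UMIs (1379 CPM) in CD1, and stayed at or below 1.69 CPM in the other 5 classes. *Abca8b* (205 and 162 CPM) and *Abca6* (99.6 and 77.0 CPM) were likewise highest there. *Abca9* was shared by fibroblast-like (223 and 300 CPM) and macrophage-like barcodes (172 and 223 CPM), and was at or below 4.00 CPM in T-like, NK-like, B-like and endothelial-like barcodes. *Abca14* had 86 NOD UMIs (20.8 CPM) and 252 CD1 UMIs (12.5 CPM) in macrophage-like barcodes, and at most 6 UMIs in any other of the 6 classes in either library. *Abca4*, the retinoid flippase of photoreceptors, was low and highest in endothelial-like barcodes (2.89 and 2.81 CPM).

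*Abca3*, which packages surfactant lipids in lung, was highest in NOD B-like barcodes (61.1 CPM), with 53.2 and 48.0 CPM in macrophage-like and 47.1 and 37.6 CPM in T-like barcodes. *Abca2* was highest in NK-like barcodes (46.4 and 44.0 CPM) and *Abca7* in T-like barcodes (36.2 and 25.5 CPM). *Abca13* was low, *Abca15* and *Abca17* lower still; *Abca15* and *Abca17* had at most 1.34 CPM in any of the 6 classes. *Abca5*, a lysosomal member, led in fibroblast-like barcodes on 16 NOD and 7 CD1 UMIs (29.0 and 53.9 CPM).

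Of the mitochondrial half-transporters, *Abcb10*, which takes part in haem synthesis, was highest in B-like barcodes (27.4 CPM in NOD). *Abcb8* had 25.4 CPM in NOD fibroblast-like barcodes on 14 UMIs. *Abcb6* was at or below 3.53 CPM in macrophage-like and 3.23 CPM in endothelial-like barcodes. The 5 haem and iron-sulfur partners (*Alas1*, *Fech*, *Slc25a37*, *Slc25a38* and *Tmem14c*) stayed within 2-fold in macrophage-like and NK-like barcodes. In endothelial-like barcodes *Tmem14c*, a mitochondrial porphyrin carrier, was past it (53.8 and 119.5 CPM, log2 ratio -1.15, -1.33 to -0.98).

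Among the ABCC exporters of conjugates and nucleotides, *Abcc3* was a macrophage-like transcript, with 318 NOD UMIs (76.8 CPM, 68.6 to 85.8) and 1155 CD1 UMIs (57.5 CPM, 54.2 to 60.9). *Abcc4*, which exports cyclic nucleotides and prostaglandins, was highest in endothelial-like barcodes (165 and 131 CPM), then in T-like (66.4 and 45.7 CPM). *Abcc5* was at 101 and 109 CPM in macrophage-like barcodes and at 116 and 77.0 CPM in fibroblast-like barcodes. *Abcc1*, the glutathione conjugate and leukotriene exporter, was highest in NK-like barcodes (41.1 and 49.9 CPM), as was *Abcc10* (17.6 and 9.41 CPM). None of the compared ABCC exporters passed 2-fold between the libraries in any of the 4 classes compared, 5 in macrophage-like, 4 in endothelial-like, 4 in NK-like and 3 in T-like barcodes.

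*Abcc9* encodes the sulfonylurea receptor of vascular ATP-sensitive potassium channels and was highest in mural-like barcodes. The 14 NOD mural-like barcodes held 197 UMIs (3252 CPM) and the 16 CD1 barcodes 83 UMIs (647 CPM), and 11 of the 14 NOD barcodes were among those with the highest doublet scores. In macrophage-like barcodes *Abcc9* had 53 NOD UMIs (12.8 CPM, 9.59 to 16.7) in 38 barcodes and 15 CD1 UMIs (0.747 CPM, 0.418 to 1.23) in 9 barcodes. The log2 ratio was 4.10 (3.25 to 5.03), and no NOD barcode held more than 4 of the UMIs. The *Cx3cr1*-led cluster held 47 of the 53 NOD UMIs. Mural markers summed to 5.32 CPM in these NOD barcodes, with 3 of the 8 at 0, and to 9.16 CPM in CD1, with 1 of the 8 at 0. Its channel partner *Kcnj8* had 2 and 5 UMIs in macrophage-like barcodes, and *Kcnj11* had 0 in both.

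The 4 ABCD members import fatty acids into peroxisomes or, for *Abcd4*, serve vitamin B12 release from lysosomes. *Abcd3* led in fibroblast-like barcodes (54.3 and 61.6 CPM on 30 and 8 UMIs), as did *Abcd2* (25.4 and 53.9 CPM on 14 and 7 UMIs). *Abcd4* led in endothelial-like barcodes (27.9 and 20.9 CPM). Of the translation factors, *Abcf1* was highest in T-like barcodes (132 and 128 CPM), *Abce1* (67.9 and 65.4 CPM) and *Abcf2* (22.7 and 21.6 CPM) in NK-like barcodes, and *Abcf3* in B-like barcodes (19.6 CPM in NOD). All 4 stayed within 2-fold between the libraries in all 4 classes compared.

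In the ABCG group, *Abcg2*, the breast cancer resistance protein that exports urate and drugs, was the member with the most UMIs in endothelial-like barcodes, 2558 in NOD (435 CPM, 418 to 452) and 5475 in CD1 (285 CPM, 278 to 293). The log2 ratio was 0.61 (0.54 to 0.68), within 2-fold. NK-like barcodes had 86.5 and 48.2 CPM, and B-like barcodes 0.998 CPM in NOD. *Abcg1*, the partner of *Abca1* in cholesterol export, was highest in B-like barcodes (137 CPM in NOD), with 129 and 108 CPM in endothelial-like barcodes. *Abcg3*, a rodent member related to *Abcg2*, was highest in T-like barcodes in NOD and in NK-like barcodes in CD1. In NK-like barcodes it was even between the libraries, with 141 and 104 UMIs (24.0 and 24.5 CPM) and a log2 ratio of -0.03 (-0.40 to 0.35).

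Between the libraries, macrophage-like barcodes allowed 32 members to be compared, those with at least 10 expected UMIs in the shallower library. At least 2-fold lower in NOD were 3 (*Abcb1b*, *Abcb4* and *Abca13*), where 4.02% of all 12023 genes were, and at least 2-fold higher were 2 (*Abcc9* and *Abcg3*), where 4.75% of all genes were. *Abca13* had 3 NOD UMIs (0.725 CPM, 0.149 to 2.12) and 80 CD1 UMIs (3.98 CPM, 3.16 to 4.96), a log2 ratio of -2.46 (-4.77 to -0.86). *Abcg3* had 38 NOD UMIs (9.18 CPM, 6.50 to 12.6) in 15 barcodes and 49 CD1 UMIs (2.44 CPM, 1.80 to 3.22) in 26 barcodes, a log2 ratio of 1.91 (1.26 to 2.55). In the *Cx3cr1*-led cluster *Abcg3* was even, at 1.17 and 1.06 CPM. T cell markers summed to 44.5 CPM in the NOD and 5.92 CPM in the CD1 macrophage-like barcodes with 0 of the 8 at 0 in either, and their part in the *Abcg3* value was not tested. The median log2 ratio of the compared members was 0.20, beside 0.05 for all genes compared.

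Endothelial-like barcodes allowed 28 members to be compared. *Abcb1b* was the 1 member at least 2-fold lower in NOD, where 2.81% of 12554 genes were, and *Abca5*, *Abcc9* and *Abcg3* were the 3 at least 2-fold higher, where 5.31% of genes were. *Abca5* had 152 NOD UMIs (25.9 CPM, 21.9 to 30.3) in 123 barcodes and 133 CD1 UMIs (6.93 CPM, 5.80 to 8.21) in 110 barcodes, a log2 ratio of 1.90 (1.55 to 2.25). In the *Mecom*-led cluster it was 26.1 and 8.32 CPM, in the *Rbp7*-led cluster 23.4 and 5.58 CPM, and in the *Ccdc85a*-led cluster, which held 38.7% of NOD and 11.0% of CD1 endothelial-like barcodes, 31.7 and 15.0 CPM. *Abcg3* had 70 and 71 UMIs (11.9 and 3.70 CPM, log2 ratio 1.69, 1.19 to 2.18). All 38 NOD UMIs of *Abcc9* lay in 1 barcode, against 17 CD1 UMIs in 14 barcodes; the log2 ratio of 2.87 became a bound of -0.51 without the richest barcode of each library, with NOD at 0 and set to the floor of 3 UMIs. T cell markers summed to 47.1 CPM in NOD, with 0 of the 8 at 0, and 1.82 CPM in CD1, with 1 at 0, and their part in the *Abcg3* value was not tested. The median log2 ratio of the members was 0.29, beside 0.06 for all genes.

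NK-like barcodes allowed 26 members. *Abcb1b*, *Abca9* and *Abcb8* were the 3 at least 2-fold lower in NOD, where 3.6% of 11935 genes were, and *Abca5* the 1 at least 2-fold higher, where 6.12% were. *Abcb8*, a mitochondrial potassium channel subunit, had 23 and 38 UMIs (3.92 and 8.94 CPM), a log2 ratio of -1.19. *Abca5* had 41 and 13 UMIs (6.99 and 3.06 CPM, 1.19, 0.26 to 2.22). *Abca9* had 8 and 17 UMIs (1.36 and 4.00 CPM, -1.55, -2.97 to -0.26), and 11 of the 17 CD1 UMIs were in 1 barcode. T-like barcodes, limited by 86 CD1 barcodes, allowed 17 members, of which 0 were at least 2-fold lower, where 1.24% of 7766 genes were, and *Abcg3* alone was at least 2-fold higher, where 6.09% were. *Abcg3* had 636 NOD UMIs (47.2 CPM, 43.6 to 51.0) and 14 CD1 UMIs (18.8 CPM, 10.3 to 31.6), a log2 ratio of 1.33 (0.57 to 2.21). Just inside 2-fold were *Abcd3* in T-like (0.96) and *Abcc10* in NK-like barcodes (0.90). The member and all-gene median log2 ratios were 0.15 and 0.05 in NK-like and 0.32 and 0.10 in T-like barcodes.

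**Figure D4:**
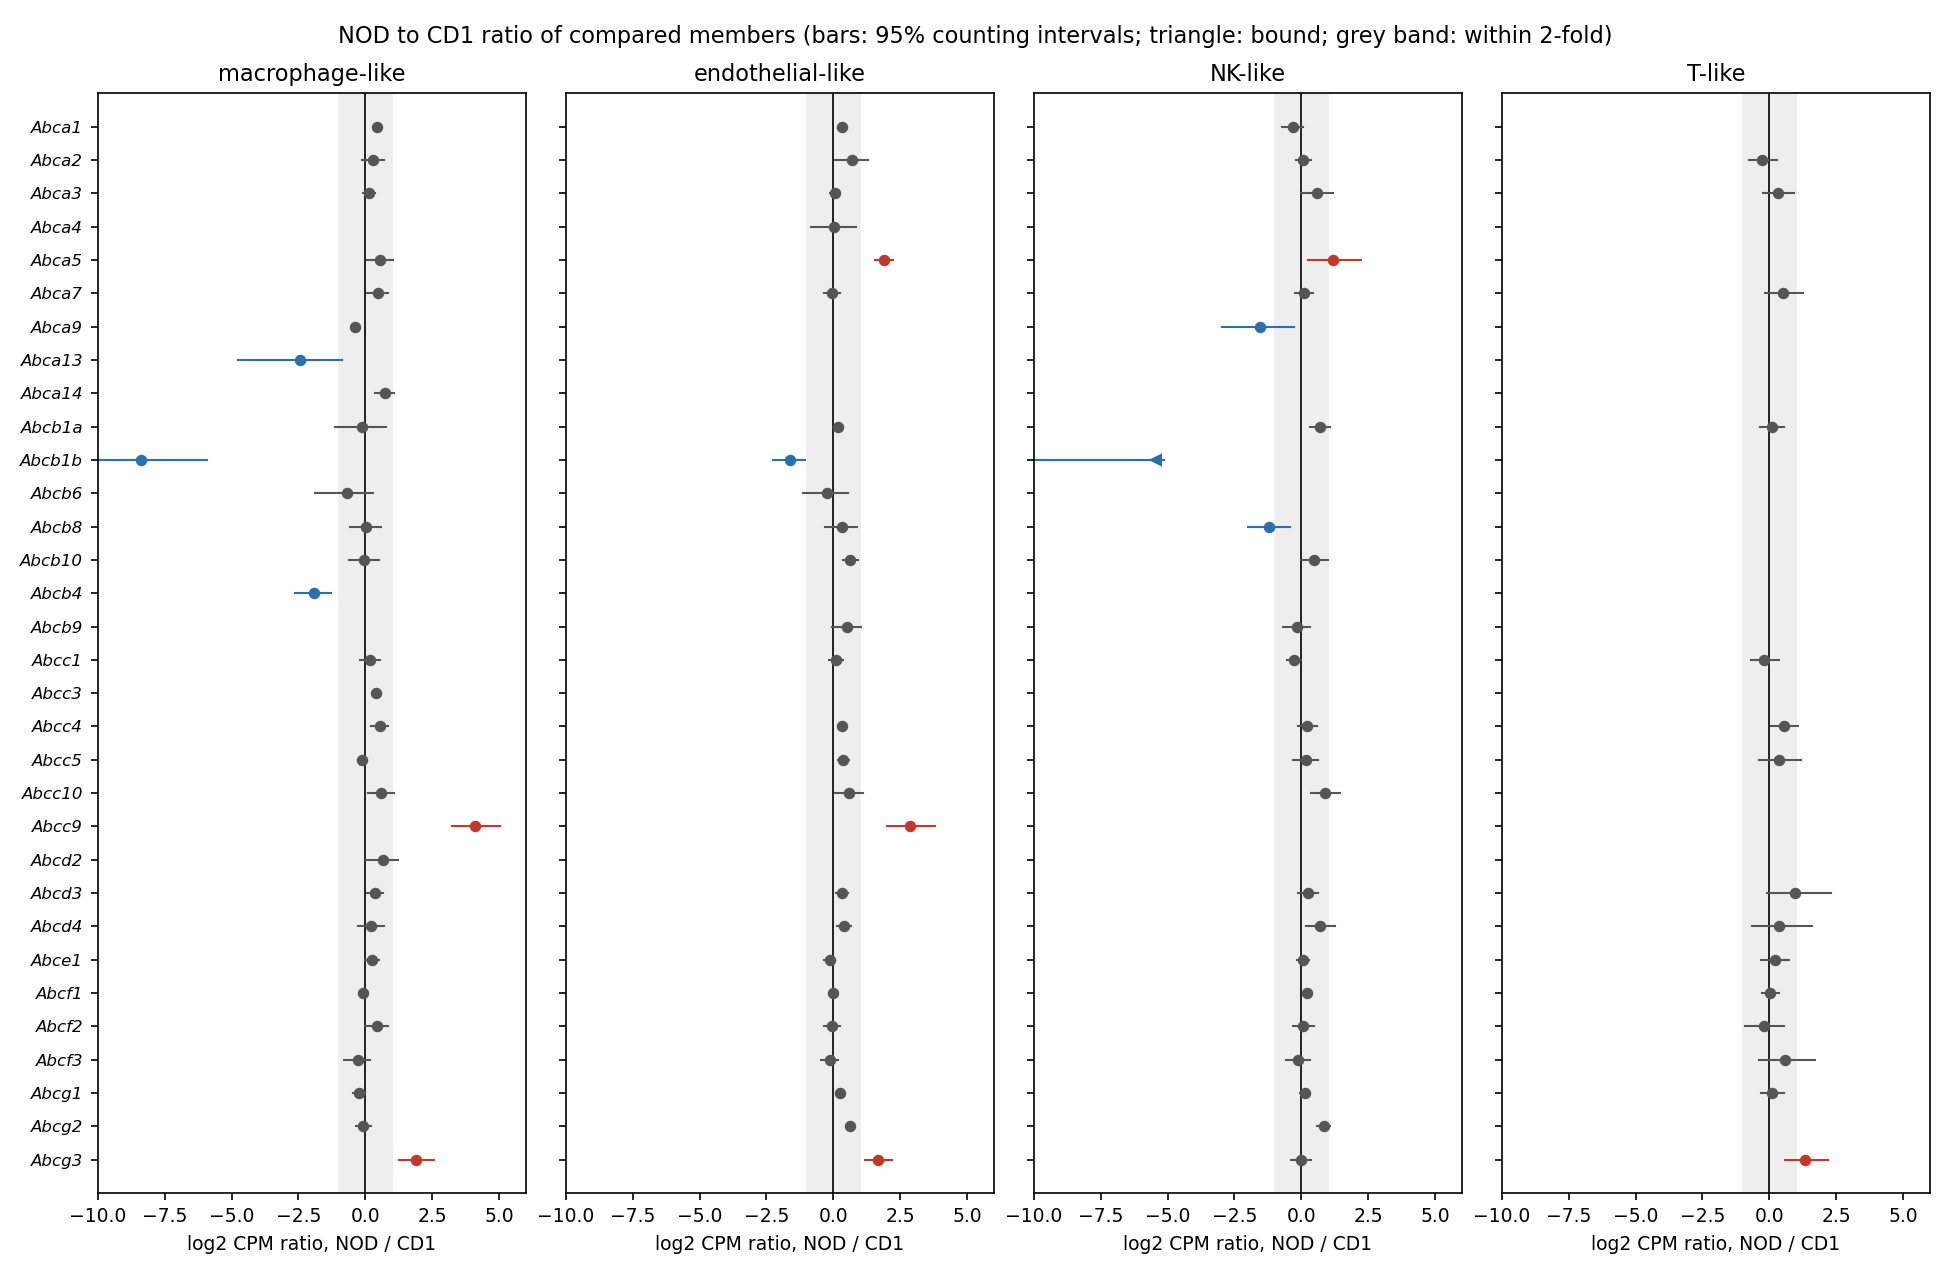
Log2 ratio of NOD to CD1 CPM for members with at least 10 expected UMIs, in 4 classes; bars are 95% counting intervals, cut at the left edge of the axis, the grey band is within 2-fold, red is higher and blue is lower in NOD, and the triangle marks a bound against 3 UMIs. Most members lie in the band, *Abcb1b* lies far to the left in macrophage-like and NK-like barcodes, and its T-like value of -4.54 is not drawn because it was under the minimum.

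Levels of some members also differed between clusters of a class, in the same order in both libraries. NOD and CD1 levels of *Abca1* were 198 and 216 CPM in the *Mecom*-led endothelial cluster, and 82.4 and 58.1 CPM in the *Rbp7*-led one. *Abcg2* was at 140 and 88.3 CPM in the NK cluster led by *Klra13-ps* and other *Klra* genes, and at 19.4 and 34.5 in the NK cluster led by *Klra5* and *Xcl1*, so the 2 libraries differed in opposite directions in these clusters. In macrophages, *Abca1* was at 339 and 220 CPM in the *Cx3cr1*-led cluster and at 58.7 and 75.1 in the cluster led by the proliferation gene *Mki67*. *Abcb1a* was at 370 and 429 CPM in the *Mecom*-led and at 258 and 220 in the *Rbp7*-led endothelial cluster.

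Genes that are not among the 50 members were described beside them. *Tap1* and *Tap2*, ABC genes with other symbols that load peptides for MHC class I, stayed within 2-fold in all 4 classes. *Tap1* in macrophage-like barcodes was nearest, with 89.6 and 46.1 CPM (log2 ratio 0.96, 0.78 to 1.13). *Cftr*, also an ABC gene with another symbol, had at most 3 UMIs per class and library in these 4 classes. Of the 8 xenobiotic response genes, *Nr1i2* and *Nr1i3*, nuclear receptors that induce drug transporters, had at most 2 UMIs in any class shown. *Nfe2l2*, the oxidant response factor, had 325 and 267 CPM in macrophage-like barcodes. *Nqo1*, one of its targets, was past 2-fold in endothelial-like barcodes, with 3.40 and 9.64 CPM (log2 ratio -1.50, -2.25 to -0.83). Of the 12 sterol genes, 10 stayed within 2-fold in macrophage-like barcodes. *Nr1h2*, a liver X receptor, was among them (23.7 and 24.1 CPM, log2 ratio -0.02, -0.35 to 0.29). *Nr1h3*, another liver X receptor that drives *Abca1* and *Abcg1*, was higher in NOD (8.46 and 2.64 CPM, log2 ratio 1.68, 1.02 to 2.32). *Apoe*, an acceptor of exported cholesterol, was lower (4882 and 11091 CPM, -1.18, -1.20 to -1.16).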

How the data were processed

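Per the file headers and labels, the authors deposited unfiltered UMI counts per gene and barcode from droplet libraries; the submitters' processing notes name Cell Ranger 8.0.0, Seurat 5.0.1, R 4.3.1 and GRCm39. From these counts (43439635 UMIs in kept NOD and 49420810 in kept CD1 barcodes), no mitochondrial or doublet limit was applied, and Scrublet scores and a limit of 10% mitochondrial UMIs served as alternatives. Summed UMIs of each marker class were scaled to CPM, with exact intervals from the Poisson distribution; ratios have conditional binomial and shares Clopper-Pearson intervals. Genes were compared where the pooled sum gave at least 10 expected UMIs in the shallower library. Past 2-fold means a log2 ratio of at least 1 in size. A class or library at 0 was set to 3 counts for a bound.

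Clusters (Leiden, scanpy 1.11.5, 2000 variable genes without the 50 member genes, 30 components) are called by their leading genes. Some members counted here are not reported by name or drawn. Empty droplets were barcodes of 10 to 100 UMIs. Intervals were checked on data simulated from the Poisson model that they assume. The simulation held neither UMIs clumped in single barcodes nor differences between mice, so it cannot show how the intervals behave under those. The members, gene lists and minimums were chosen with earlier results of these data known. Named were *Abcb1a* and *Abcb1b* in all large classes, and other members in their highest class and where past 2-fold. Other values, such as those of *Abca3* beyond its highest class and all cluster values, and all partner genes, were chosen after values were seen. All 50 symbols matched the RefSeq table of GRCm38.p6, used for names, neighbours and promoter sequence only. The paper describes collagenase/hyaluronidase and the labels Liberase, each with dispase. Python 3.11.15, numpy 2.4.6, scipy 1.17.1, pandas 2.3.3 and matplotlib 3.10.9 were used.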

Additional observations from a re-analysis of the deposited data

Results flagged for a closer look

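Of the members with enough UMIs in empty droplets for a comparison (31), 2 were at least 2-fold higher in the NOD than in the CD1 droplets, although these barcodes enter no comparison of cells. The share of all genes past 2-fold in these droplets was not counted, so the numbers of members past it are not a result about the family. *Abcg3* had 88 UMIs (18.0 CPM) in NOD and 7 (2.08 CPM) in CD1 empty droplets, a log2 ratio of 3.11 (2.01 to 4.47). *Abca8a* had 78 UMIs (15.9 CPM) and 25 (7.42 CPM), a log2 ratio of 1.10 (0.44 to 1.81). The higher NOD level of *Abcg3* in macrophage-like and endothelial-like barcodes, 9.18 and 11.9 CPM, lay below its level in the NOD empty droplets. With free RNA subtracted, its log2 ratio in endothelial-like barcodes was 1.60 (1.05 to 2.09), beside 1.69 without. In macrophage-like barcodes the subtraction gave no value, so the part of free RNA there was not tested. In the other direction, 5 members were at least 2-fold lower in NOD droplets, among them *Abcb1b* with 7 UMIs (1.43 CPM) against 118 (35.0 CPM), and this was the lowest ratio of the 31, at -4.61 (-5.96 to -3.53).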

How the results depend on the processing

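*Abcb1b* stayed lower in NOD in macrophage-like, NK-like and endothelial-like barcodes under every alternative run for it. Over the log2 ratios of members past 2-fold, apart from *Abcb1b* in macrophage-like barcodes, 108 values kept their direction and were counted as staying within the counting interval of the reported value, 5 left it and 4 reversed. Counted among the 108 was *Abcb1b* in NK-like barcodes with a lead of 3 markers, a bound of -5.06, although the reported interval ended at -5.12. The 5 were *Abca9* in NK-like barcodes (-4.61 with free RNA subtracted), *Abcc9* in macrophage-like (5.23 in the *Cx3cr1*-led cluster) and endothelial-like barcodes (1.37 with the mean of single barcodes), and *Abcg3* in macrophage-like barcodes (1.20 with that mean and 0.17 in the *Cx3cr1*-led cluster). Some that stayed within it fell under 2-fold in NK-like barcodes: *Abca9* at -0.81 with doublets removed, -0.90 with the mean of single barcodes and -0.47 without the richest barcode, *Abca5* at 0.99 with doublets removed and 0.64 with clusters, and *Abcb8* at -0.99 with a lead of 3 markers and -0.68 with clusters. The reversals were all *Abcc9* in endothelial-like barcodes, at -0.74 without the barcodes of highest doublet score, -0.51 with a lead of 3 markers, -2.61 with clusters as classes and -0.51 without the barcode richest in the gene. *Abcb1a* in macrophage-like barcodes moved from -0.11 to 0.93 with a lead of 3 markers, 3.05 with clusters and 2.52 in the *Cx3cr1*-led cluster alone, and the cause was not tested. Members at least 2-fold higher in NOD became 2 in T-like barcodes (doublets removed; clusters), 2 (lead of 3) or 0 (clusters) in NK-like, and 1 (mean of single barcodes), 0 (20 expected UMIs) or 0 (*Cx3cr1*-led cluster) in macrophage-like barcodes. Members lower became 1 in T-like (5 expected UMIs) and 2 in endothelial-like barcodes (clusters; 5 expected UMIs). Smaller changes ran from 2 to 4 for members lower in NK-like and in macrophage-like barcodes, beside 3 reported, and to 2 for members higher in endothelial-like barcodes, beside 3. The *Abcb1b* share in CD1 NK-like barcodes moved to 37.0% with clusters and 44.0% with the mean of single barcodes. In CD1 macrophage-like barcodes it was 98.1% with doublets removed, 98.9% with a lead of 3, 98.7% with clusters, 97.2% with the mean of single barcodes and 99.3% in the *Cx3cr1*-led cluster, where the NOD share was 0%. The *Cx3cr1*-led cluster and the removal of single barcodes were chosen after seeing the data. Subtracting free RNA gave no value in macrophage-like and B-like barcodes, because the share estimated from salivary secretory genes reached 100% and 87.8% in NOD, and the highest class of members was not recomputed under it. Median-of-ratios scaling shifted all genes by at most 0.10 log2. No paired analysis was possible because each strain has 1 library, and for the same reason no library could be left out. With 86 T-like, 16 fibroblast-like and 8 B-like CD1 barcodes, small differences in those classes were not detectable at this depth.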
